A study of Mus musculus with 2 samples.

Results

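Cells labelled EC_CAP-PV+ are a small class of endothelial cells, the cells that line blood vessels, in mouse sciatic nerve. They were taken by that label in the authors' deposited cell table and matched to each library's matrix by library and cell barcode. The label was on 56 of 2301 annotated cells and 3641 barcodes, 14 of them in injured and 42 in intact nerve. The study prepared 1 single-cell RNA library of each condition from adult mice carrying Cdh5(PAC)-CreERT2 and the R26-TomatoLSL reporter. Cdh5 encodes VE-cadherin, so the Cre driver marks endothelium with tdTomato, and both libraries hold sorted tdTomato-positive, CD45-negative cells. The injured library comes from the bridge, the new tissue at the lesion site, 7 days after injury, and the intact library from uninjured nerves. Nerves of several animals were pooled, the sources used here name neither an exact age nor a sex, and no library was repeated. No test between conditions or classes was therefore made, and condition, animals, sort, sampled site and sequencing cannot be told apart.

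Capillaries exchange solutes and lipids with the tissue around them. In peripheral nerve, the endoneurial vessels form a barrier with tight junctions and dedicated transporters, while vessels of the outer sheaths are leakier. Plvap encodes the protein of the diaphragms that span fenestrae and caveolae of permeable endothelium and is low in barrier vessels. Fabp4 encodes a cytosolic fatty acid carrier that marks capillaries and veins of many tissues.

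The 42 intact cells held 188138 UMIs (unique molecular identifiers, each standing for a captured transcript), with 643, 3339 and 13872 UMIs in the lowest, median and highest cell. The 14 injured cells held 87318 UMIs, with 508, 5035.5 and 19311 in the lowest, median and highest. Intact EC_CAP-PV- numbered 129 cells with 486572 UMIs, and intact EC_VEN-PV+, a class labelled venous, 218 cells with 1348326 UMIs. Across the whole libraries 298 cell barcodes occur in both. A single pair lies among the EC_CAP-PV+ cells, since the deepest intact cell (13872 UMIs) and the shallowest injured cell (508 UMIs) carry the same barcode and the same label. Levels below are UMIs summed over the cells of a class and scaled to a total of 1000000 (CPM), and every interval is a 95% interval that covers counting error only.

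All 12 pan-endothelial and all 12 capillary markers had UMIs in the intact EC_CAP-PV+ cells. The capillary markers summed to 11593 CPM there and 7993 CPM in the other annotated intact cells, against 824 and 2103 CPM for 12 arterial and 973 and 3378 CPM for 12 venous markers. The capillary sum was below the 29825 CPM of intact EC_CAP-PV- and the 12198 CPM of intact EC_VEN-PV+, where Fabp4, itself one of these markers, takes a large part. Fabp4 was also given with the series as a marker of this label, and made up 5905 CPM of the sum in EC_CAP-PV+. Of 11 capillary markers measured against EC_CAP-PV-, 7 were at least 2-fold lower in EC_CAP-PV+ and 1 higher, and of 9 against EC_VEN-PV+ 6 were higher and 1 lower. The 10 genes most above the other annotated intact cells were Col13a1, Penk, Rbp7, Esm1, Itm2a, Ramp3, Tnfaip2, Plpp1, Ednrb and Lamb1. They include Rbp7 from the capillary markers and Esm1 and Ramp3 from 14 markers of tip cells, the leading cells of sprouting vessels, so tip markers outnumber capillary ones among them. Of the tip markers 4 had no UMI, Apln among them, and 15 of 16 mitosis markers had none. The cells are therefore called here by their label, without a further cell type name. Markers of other cells summed in intact EC_CAP-PV+ cells to 282 CPM for pericytes and smooth muscle, 133 CPM for fibroblasts, 106 CPM for lymphatic endothelium, 101 CPM for perineurial cells and 95.7 CPM for Schwann cells, with 0 UMIs for adipocytes. Those of myeloid and lymphoid cells, which a CD45-negative sort removes, were at 26.6 CPM and 0. The reporter transcript was found in 10 of 42 intact and 6 of 14 injured EC_CAP-PV+ cells.

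Penk, Col13a1, Itm2a, Tnfaip2 and Esm1 are the 5 genes that rank among the 12 highest in intact EC_CAP-PV+ cells against both comparison classes. Of these, 4 have an entry in the RefSeq promoter table of GRCm38.p6. For them the window from 250 bases before to 50 after the annotated start is shown. Motif matches are in capitals. The letters searched on both strands were TATAAA for the TATA box, AACAAT for the SOX core, TGANTCA for AP-1, GGAAGT for ETS factors and GGGCGG for the GC box, and a MEF2 core was searched too. None of these overlapped another match. AP-1, the SOX core and the MEF2 core, found in 7.81%, 10.7% and 3.69% of all windows, had no match in the 4.
Col13a1 (chr10:61979059-61979358, minus strand): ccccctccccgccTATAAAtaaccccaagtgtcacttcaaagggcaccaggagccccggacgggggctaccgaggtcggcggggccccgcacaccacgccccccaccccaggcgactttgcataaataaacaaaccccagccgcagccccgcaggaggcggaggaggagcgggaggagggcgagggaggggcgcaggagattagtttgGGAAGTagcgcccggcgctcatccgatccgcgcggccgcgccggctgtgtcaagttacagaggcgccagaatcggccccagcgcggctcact
Itm2a (chrX:107403311-107403610, minus strand): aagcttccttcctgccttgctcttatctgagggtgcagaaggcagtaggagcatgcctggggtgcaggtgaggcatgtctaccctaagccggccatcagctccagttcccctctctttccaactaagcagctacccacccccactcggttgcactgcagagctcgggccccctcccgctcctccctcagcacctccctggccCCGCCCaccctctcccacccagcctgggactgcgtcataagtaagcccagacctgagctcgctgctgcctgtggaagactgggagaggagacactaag
Tnfaip2 (chr12:111442411-111442710, plus strand): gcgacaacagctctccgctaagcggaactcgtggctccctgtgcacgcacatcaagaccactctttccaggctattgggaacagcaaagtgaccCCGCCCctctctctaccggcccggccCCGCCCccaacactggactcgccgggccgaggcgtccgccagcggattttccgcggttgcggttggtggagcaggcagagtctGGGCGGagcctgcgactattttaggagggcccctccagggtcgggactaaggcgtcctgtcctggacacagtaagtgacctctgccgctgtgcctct
Esm1 (chr13:113209409-113209708, plus strand): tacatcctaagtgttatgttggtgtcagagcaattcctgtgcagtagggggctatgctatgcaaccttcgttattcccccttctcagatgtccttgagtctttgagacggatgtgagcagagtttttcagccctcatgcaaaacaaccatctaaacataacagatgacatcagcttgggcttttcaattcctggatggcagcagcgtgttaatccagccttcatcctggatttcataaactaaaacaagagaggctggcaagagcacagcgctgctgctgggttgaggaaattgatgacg
The Col13a1 window held TATAAA with its first base 237 bases before the start and GGAAGT 42 bases before it. Those letters occur in 13.6% and 23.8% of the 32851 promoter windows of that length. The GC box, in 35.7% of all windows, occurred in 1 copy in the Itm2a window and 3 copies in the Tnfaip2 window, and no letters searched were in the Esm1 window. The windows differed in G and C content, at 68.0% for Col13a1, 64.3% for Tnfaip2, 62.0% for Itm2a and 46.3% for Esm1. Penk, Plvap and Fabp4 have no entry there. In the GRCm38 annotation Plvap spans chr8:71497765-71511752 on the minus strand, Fabp4 spans chr3:10204088-10208576 on the minus strand and Penk spans chr4:4133531-4138819 on the minus strand.

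Plvap was higher and Fabp4 lower in intact EC_CAP-PV+ than in intact EC_CAP-PV- cells. Both genes were given with the series as markers of this label, so their levels describe the class and test nothing. Plvap had 0, 3354 and 11268 CPM in the lowest, median and highest EC_CAP-PV+ cell, against 0, 0 and 4778 CPM among EC_CAP-PV- and 0, 2255 and 7262 CPM among EC_VEN-PV+ cells. The ranges overlap, but 41 of 42 EC_CAP-PV+ cells had a Plvap UMI, against 50 of 129 EC_CAP-PV- cells. With each cell thinned to 2000 UMIs, it was in 33 of 33 EC_CAP-PV+, 26 of 80 EC_CAP-PV- and 194 of 202 EC_VEN-PV+ cells that reached that depth, which leaves out 9, 49 and 16 cells. As a measure of background, 19 of 181 intact cells labelled EC_BAR, the barrier class, had a Plvap UMI, at a median of 4682 UMIs per cell, and 5 of 145 when thinned. Summed over cells, Plvap stood at 3582 CPM in EC_CAP-PV+ and 543 CPM in EC_CAP-PV-, 6.60-fold higher (5.72 to 7.64). Against 2243 CPM in EC_VEN-PV+ it was 1.60-fold higher (1.47 to 1.74).

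Fabp4 had UMIs in all 42 intact EC_CAP-PV+ cells, at 336, 5309 and 18262 CPM in the lowest, median and highest. EC_CAP-PV- cells had 0, 16983 and 88073 CPM and EC_VEN-PV+ cells 0, 9474 and 38275 CPM. The ranges overlap, and the median EC_CAP-PV+ cell lay below the lower quartile of both other classes (8436 CPM in EC_CAP-PV- and 6552 CPM in EC_VEN-PV+). The summed level was 5905 CPM in EC_CAP-PV+, against 20482 CPM in EC_CAP-PV- (3.47-fold lower, 3.26 to 3.69) and 10603 CPM in EC_VEN-PV+ (1.80-fold lower, 1.69 to 1.91).

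**Figure D1:**
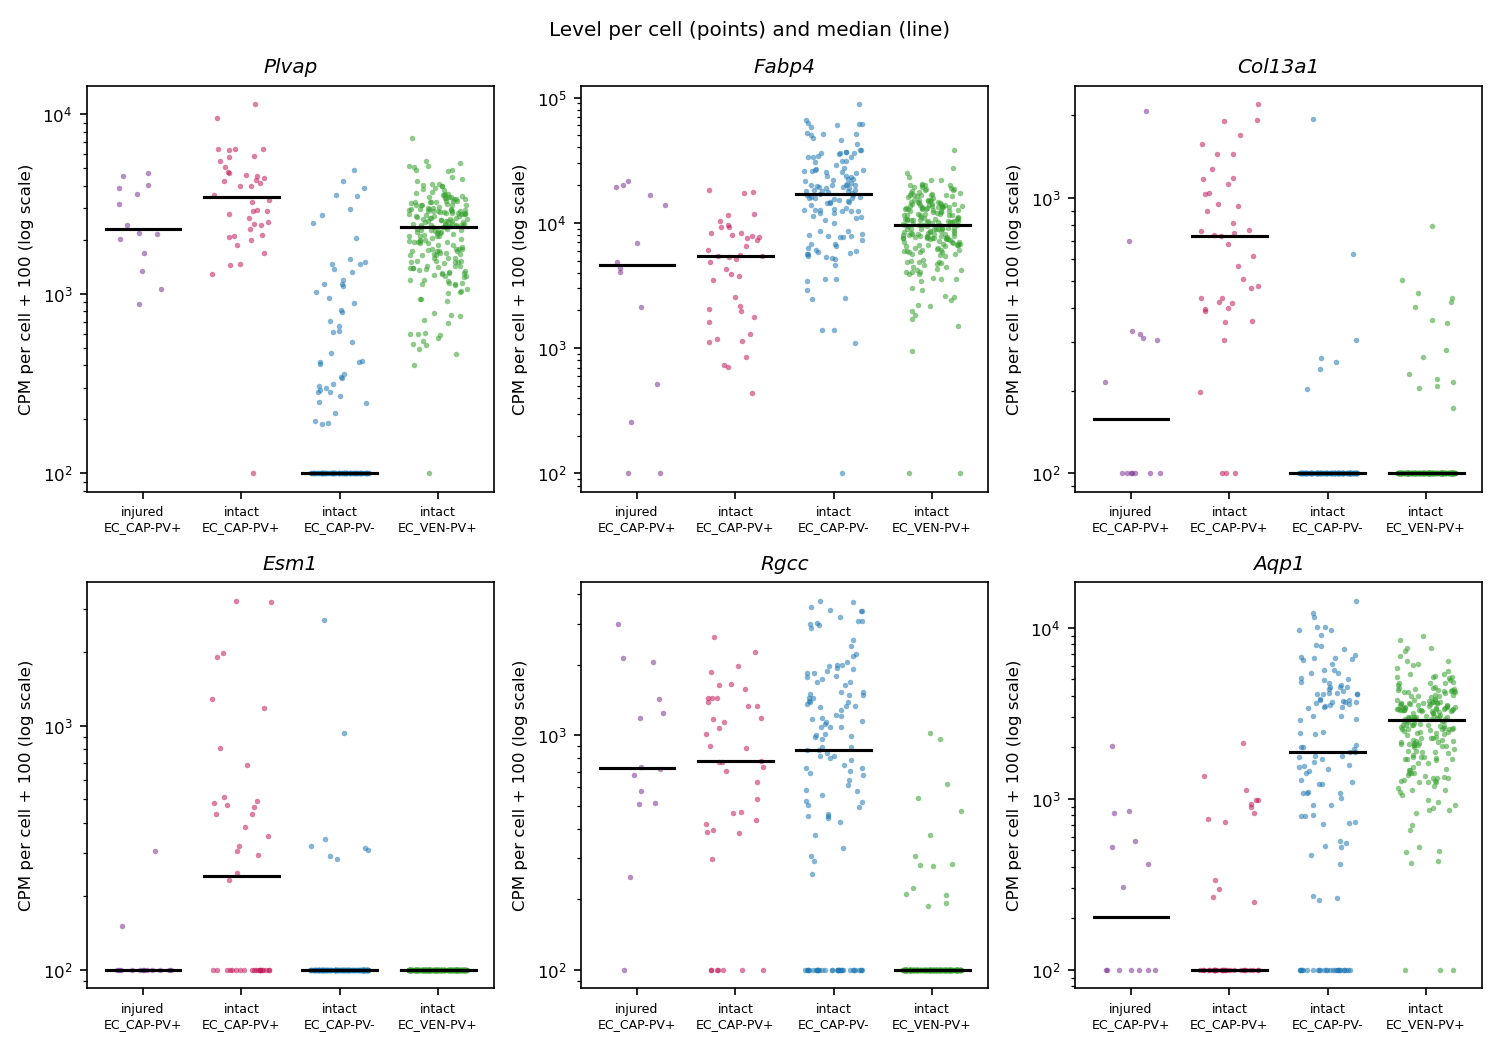
Levels per cell (CPM + 100, log scale) of Plvap, Fabp4, Col13a1, Esm1, Rgcc and Aqp1 in injured EC_CAP-PV+ (14 cells), intact EC_CAP-PV+ (42), intact EC_CAP-PV- (129) and intact EC_VEN-PV+ (218), with a point for each cell and a line at the median. Cells without a UMI sit at the floor of 100, as most EC_CAP-PV- cells do for Plvap and Col13a1 and most intact EC_CAP-PV+ cells do for Aqp1.

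Against intact EC_CAP-PV- cells, the class that shares the capillary label, 1564 genes were measured, that is, averaged at least 100 CPM over the 2 classes. Of these 56 (3.58%) were at least 2-fold higher in EC_CAP-PV+ cells and 64 (4.09%) at least 2-fold lower, on a log2 scale with 20 CPM added to both levels. The median log2 ratio was 0.01, and Pearson's r of the 2 log2 profiles across genes, which are not independent replicates, was 0.877. The classes were assigned from the same transcripts, so these differences describe the classes and test nothing. Members of the gene lists are measured by the same rule, and a list's count can be read against those 2 percentages.

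Penk, Col13a1, Itm2a and Tnfaip2 were the 4 genes highest in EC_CAP-PV+. Penk, the precursor of the enkephalin opioid peptides, had 70 UMIs in 16 of 42 EC_CAP-PV+ cells and 0 in 129 EC_CAP-PV- cells, so it was at least 60.3-fold higher, with the EC_CAP-PV- level set to 3 UMIs over the class. Col13a1, a transmembrane collagen, was at 643 CPM and in 39 of 42 EC_CAP-PV+ cells, against 34.9 CPM and 7 of 129 EC_CAP-PV- cells (18.4-fold higher, 11.03 to 32.6). Its per-cell level ran from 0 through a median of 632 to 2092 CPM in EC_CAP-PV+ cells and was 0 in the median EC_CAP-PV- cell. The membrane protein gene Itm2a had 526 CPM in EC_CAP-PV+ and 30.8 CPM in EC_CAP-PV- (17.1-fold, 9.86 to 31.6).

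Tnfaip2, a gene induced by tumour necrosis factor in endothelium, had 361 CPM in EC_CAP-PV+ and 20.6 CPM in EC_CAP-PV- (17.6-fold higher, 9.003 to 38.3). Esm1, which encodes the secreted proteoglycan endocan, had 383 and 34.9 CPM (10.95-fold, 6.39 to 19.8), and 34.7% of its EC_CAP-PV+ UMIs came from a single cell. Fam167b had 207 CPM in EC_CAP-PV+ and 12.3 CPM in EC_CAP-PV- (16.8-fold, 7.07 to 48.6). Thinned to 2000 UMIs, Col13a1 was in 24 of 33 EC_CAP-PV+ and 2 of 80 EC_CAP-PV- cells and Esm1 in 14 of 33 and 7 of 80. The presence of these transcripts varied, from 22 of 42 EC_CAP-PV+ cells for Esm1 and Fam167b to 26 of 42 for Itm2a and Tnfaip2. Pam, the enzyme that amidates neuropeptides, was 7.24-fold higher at 819 CPM in EC_CAP-PV+, against 113 CPM in EC_CAP-PV-. Piezo2, a stretch-gated cation channel, had 22 UMIs in 12 EC_CAP-PV+ cells and 2 UMIs in EC_CAP-PV- cells (28.4-fold, 6.99 to 249.6), and its mean over the classes stayed under the 100 CPM needed to be counted. Cd24a, a surface sialoglycoprotein, and Ramp3, a co-receptor for adrenomedullin, were 7.45-fold and 6.84-fold higher in EC_CAP-PV+, at 260 and 197 CPM.

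**Figure D2:**
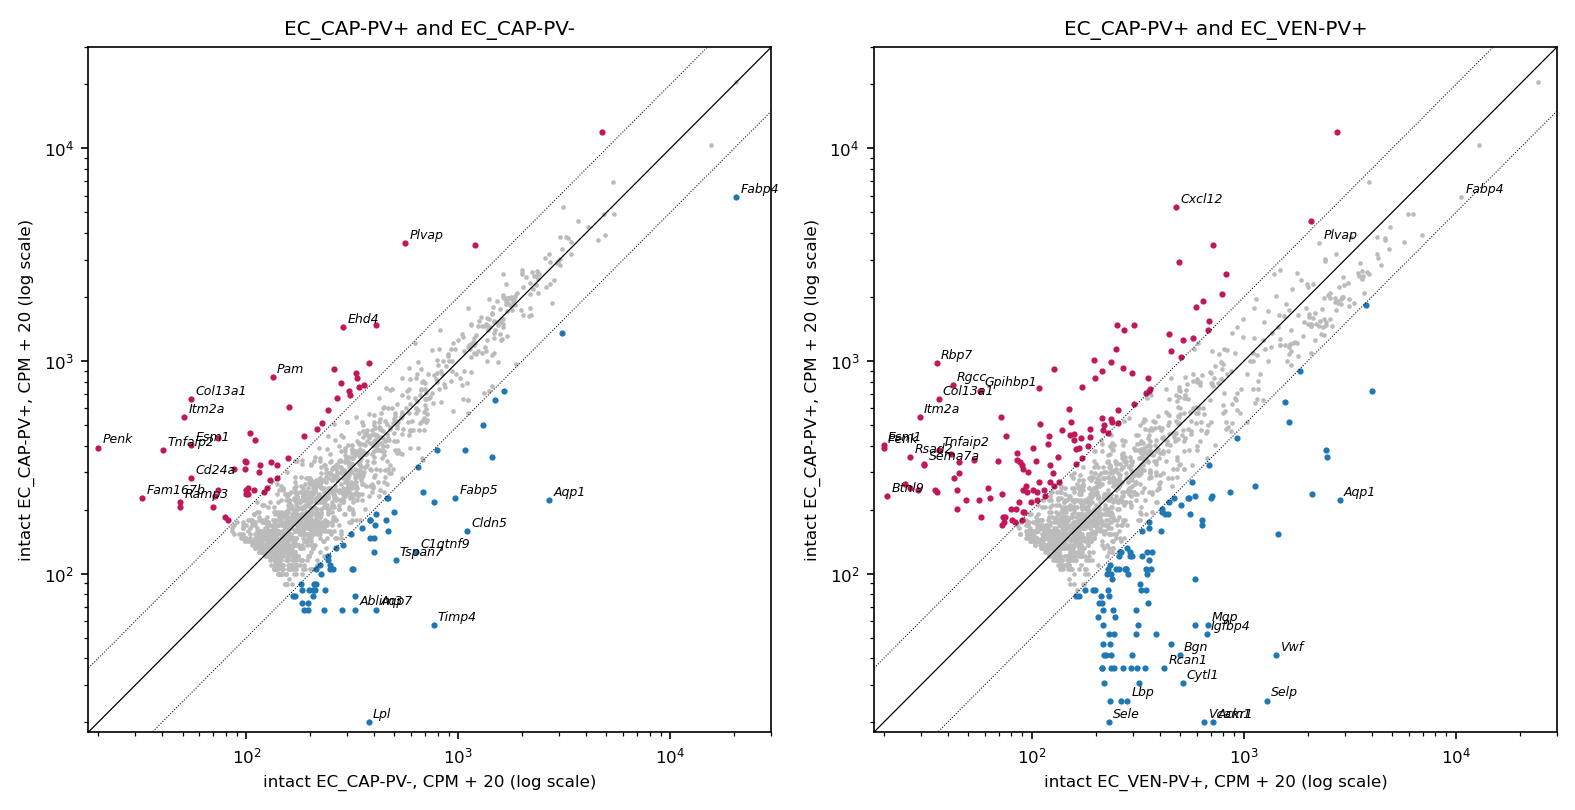
Summed level of each measured gene (CPM + 20, both axes log scale) in intact EC_CAP-PV+ cells against intact EC_CAP-PV- (left) and intact EC_VEN-PV+ (right). Red and blue points are at least 2-fold higher or lower in EC_CAP-PV+ (56 and 64 genes on the left, 128 and 116 on the right), the solid line marks equal levels and the dotted lines 2-fold, and Col13a1, Itm2a, Penk and Esm1 lie far above the upper dotted line in both panels.

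At the other end, several lipid-handling and water-channel transcripts were lower in EC_CAP-PV+ than in EC_CAP-PV- cells. Lpl, the lipase that frees fatty acids from circulating lipoproteins, had 0 UMIs in 42 EC_CAP-PV+ cells, which at this depth allows up to 7.14% of cells with a UMI and does not limit the share of cells that express the gene, against 174 UMIs in 63 of 129 EC_CAP-PV- cells, and was at least 22.4-fold lower. Timp4, an inhibitor of matrix metalloproteinases, had 37.2 CPM in EC_CAP-PV+ and 744 CPM in EC_CAP-PV- (19.996-fold lower, 9.61 to 50.1). Aqp1, a water channel, had 202 and 2668 CPM (13.2-fold lower, 9.57 to 18.8). Aqp1 was detected in 14 of 42 EC_CAP-PV+ cells, against 103 of 129 EC_CAP-PV- and 215 of 218 EC_VEN-PV+ cells, and thinned in 10 of 33, 64 of 80 and 196 of 202.

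Aqp7, a channel for glycerol, was 8.16-fold lower in EC_CAP-PV+ (47.8 CPM, against 390 CPM in EC_CAP-PV-). Cldn5, the main claudin of endothelial tight junctions, had 138 CPM in EC_CAP-PV+ and 1077 CPM in EC_CAP-PV- (7.79-fold lower, 5.26 to 12). It was present in 7 of 42 EC_CAP-PV+ cells, and a single cell held 16 of its 26 UMIs there. Car4, a membrane carbonic anhydrase of capillaries, had 3 UMIs in EC_CAP-PV+ and 84 in EC_CAP-PV- (10.8-fold lower, 3.58 to 53.6), too few to be counted. The nucleoside transporter gene Slc28a2 had 2 and 80 UMIs (15.5-fold lower, 4.14 to 130), and the chemokine gene Cxcl9 had 0 and 60 UMIs (at least 7.73-fold lower), both also under the minimum level. C1qtnf9, a secreted protein of the adiponectin family, the actin-binding gene Ablim3 and the tetraspanin gene Tspan7 were 5.74-fold, 6.40-fold and 5.09-fold lower.

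Of 22 genes of fatty acid uptake and lipid handling, 11 were measured, 7 of them at least 2-fold lower in EC_CAP-PV+ than in EC_CAP-PV- and 1 higher, with a median log2 ratio of -1.18 beside 0.01 over all genes measured. The lower ones were Fabp4, Lpl, Fabp5 (207 CPM in EC_CAP-PV+, 947 CPM in EC_CAP-PV-), the fatty acid translocase gene Cd36 (1339 and 3058 CPM), Gpihbp1, which carries Lpl to the capillary lumen (707 and 1622 CPM), and Meox2 and Tcf15, transcription factors that drive fatty acid uptake genes in mouse heart endothelium (47.8 and 263 CPM, 197 and 748 CPM). The higher one was Rbp7, an intracellular retinol-binding protein of capillary endothelium, at 957 CPM in EC_CAP-PV+ and 360 CPM in EC_CAP-PV- (2.66-fold higher, 2.15 to 3.29). Scarb1, a lipoprotein receptor gene, Mgll and Pnpla2, which encode lipases, lay within 2-fold.

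The Plvap and caveolae list (9 of 12 genes measured) held 2 higher and 1 lower gene. Ehd4, an ATPase of membrane trafficking, had 1424 CPM in EC_CAP-PV+ and 267 CPM in EC_CAP-PV- (5.33-fold higher, 4.31 to 6.63), beside Plvap. Cavin2, a coat protein of caveolae, was 2.34-fold lower (632 and 1478 CPM). The caveolar scaffold gene Cav1 had 951 CPM in EC_CAP-PV+ and 1860.0 CPM in EC_CAP-PV-, a log2 ratio of -0.95. Of 12 measured junction genes Cldn5 was lower and Jam3, a junctional adhesion molecule, higher (260 and 119 CPM), while Cdh5, which encodes VE-cadherin, had 973 and 1517 CPM and Pecam1 had 1749 and 1087 CPM.

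Among 13 basement membrane genes, Col15a1, a collagen of the vessel wall, was 2.76-fold higher in EC_CAP-PV+ (856 CPM, against 310 CPM in EC_CAP-PV-), the laminin chain gene Lamb1 was 2.22-fold higher (223 and 101 CPM) and Timp4 lower. Igfbp7, a secreted protein that binds insulin-like growth factors, stood at 11890.2 CPM in EC_CAP-PV+ and 4729 CPM in EC_CAP-PV- (2.51-fold higher, 2.37 to 2.67). Of 5 measured detoxifying and luminal enzyme genes, the flavin monooxygenase genes Fmo1 and Fmo2 and the glutathione transferase gene Gstm1 were lower and Ace, the angiotensin-converting enzyme, was higher (282 and 94.5 CPM). In the immediate early list Atf3 and Fosl2 were the 2 lower of 16. None of 7 VEGF, 10 BMP and TGF-beta, 13 interferon-stimulated, 12 heat shock and 4 Notch genes measured was 2-fold apart between EC_CAP-PV+ and EC_CAP-PV-. Single genes of other lists were apart. Higher in EC_CAP-PV+ were Lrg1, a secreted glycoprotein (218 and 80.2 CPM), the prostaglandin synthase gene Ptgs1 (159 and 61.7 CPM), the clock repressor gene Bhlhe40 (218 and 82.2 CPM) and Eno1, a glycolytic enzyme (255 and 109 CPM). Lower were Sox7, an endothelial transcription factor (69.1 and 189 CPM), and the class I gene H2-Q7 (90.4 and 228 CPM). The VEGF receptor gene Kdr had 1377 CPM in EC_CAP-PV+ and 801.5 CPM in EC_CAP-PV-, and the phosphatase gene Ptprb 1169 CPM in both.

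Against intact EC_VEN-PV+ cells, which share Plvap, more genes were 2-fold apart. Of 1517 measured genes 128 (8.44%) were higher in EC_CAP-PV+ and 116 (7.65%) lower, with a median log2 ratio of 0.07 and r = 0.732 across genes. Among the highest were capillary genes and genes already named against EC_CAP-PV-. Rbp7 had 957 CPM in EC_CAP-PV+ and 15.6 CPM in EC_VEN-PV+ (61.4-fold, 39.0 to 102). Rgcc, a cell cycle regulator that marks capillaries, had 749 and 22.2 CPM (33.7-fold, 22.6 to 51.8). It was present in 35 of 42 EC_CAP-PV+ and 15 of 218 EC_VEN-PV+ cells, and thinned in 22 of 33 and 8 of 202. Gpihbp1 had 707 CPM in EC_CAP-PV+ and 37.1 CPM in EC_VEN-PV+ (19.1-fold, 13.7 to 26.9), so it lay between the levels of EC_VEN-PV+ and EC_CAP-PV-.

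Esm1 and Penk had no UMI in 218 EC_VEN-PV+ cells and were at least 172-fold and at least 167-fold higher in EC_CAP-PV+. Itm2a, Col13a1 and Tnfaip2 were 54.6-fold, 39.4-fold and 22.2-fold higher. Btnl9, a butyrophilin-like gene, had 40 UMIs in EC_CAP-PV+ and 1 in EC_VEN-PV+ (287-fold, 48.6 to 11602.2). Rsad2, an interferon-stimulated antiviral gene, had 335 CPM in EC_CAP-PV+ and 6.67 CPM in EC_VEN-PV+ (50.2-fold, 24.8 to 115). Sema7a, a membrane-anchored semaphorin, was 27.7-fold higher at 308 and 11.1 CPM. The chemokine gene Cxcl12 had the largest of these levels, with 5278 CPM in EC_CAP-PV+ and 460 CPM in EC_VEN-PV+ (11.5-fold, 10.4 to 12.7).

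Lower in EC_CAP-PV+ were genes of venous endothelium and of leukocyte adhesion. The 12 venous markers summed to 973 CPM in EC_CAP-PV+ and 8143 CPM in EC_VEN-PV+, and 9 of 11 measured were lower. Markers of pericytes and smooth muscle (282 and 1545 CPM) and of perineurial cells (101 and 323 CPM) were also lower in EC_CAP-PV+, and their part in the genes below was not tested. Selp, the platelet and endothelial selectin, had 1 UMI in EC_CAP-PV+ and 1706 in EC_VEN-PV+ (238-fold lower, 42.7 to 9408). Vwf, the clotting factor carrier stored in endothelium, had 21.3 and 1393 CPM (65.5-fold lower, 25.5 to 241). No EC_CAP-PV+ cell had a UMI of Ackr1, the chemokine-binding receptor of venules, or of the adhesion molecules Vcam1 and Sele, which were at least 43.7-fold, 39.3-fold and 13.3-fold lower. Of 9 leukocyte adhesion and chemokine genes measured, 7 were lower and Cxcl12 higher, with a median log2 ratio of -3.36, or -3.13 with genes at 0 set to their bound. Cytl1, Lbp, Rcan1, Bgn, Igfbp4 and Mgp, which encode mainly secreted and matrix proteins, were 46.5-fold, 49.1-fold, 25.2-fold, 22.5-fold, 20.4-fold and 17.6-fold lower, each on 1 to 7 UMIs in EC_CAP-PV+. Aqp1 was 13.96-fold lower (202 CPM in EC_CAP-PV+, 2819.8 CPM in EC_VEN-PV+).

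Basement membrane genes were the list with most higher members against EC_VEN-PV+, 8 of 12, with a median log2 ratio of 1.34 beside 0.07 over all genes measured. Col4a1 and Col4a2, the chains of the vessel wall's collagen IV, had 877 and 739 CPM in EC_CAP-PV+, against 194 and 152 CPM in EC_VEN-PV+ (4.53-fold and 4.86-fold higher). Lamb1 was 14.3-fold higher (223 and 15.6 CPM), and Mgp was the lower member. Of 7 VEGF pathway genes, the receptors Kdr (1377 CPM in EC_CAP-PV+, 253 CPM in EC_VEN-PV+), Flt1 (2535 and 799.5 CPM) and the co-receptor Nrp1 (989 and 176 CPM) were higher, and the venous and lymphatic co-receptor Nrp2 lower (191 and 486.5 CPM).

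In the fatty acid list 4 of 9 were higher in EC_CAP-PV+ than in EC_VEN-PV+ (Rbp7, Gpihbp1, Mgll and Tcf15) and Fabp5 and Meox2 lower. In the Wnt and barrier factor list 3 of 5 measured genes were higher. They were the endothelial transcription factors Sox17 (372 and 146 CPM) and Sox18 (606 and 284 CPM) and Tspan12, a co-receptor of Wnt and norrin signalling (229 and 93.5 CPM). The BMP target genes Id1 and Id3 were 5.17-fold and 3.09-fold higher, while the ligand gene Bmp4 had 3 UMIs in EC_CAP-PV+ and was 17.2-fold lower and the receptor gene Tgfbr3 2.26-fold lower. The stress gene Hspa1a was 10.3-fold higher (526 and 51.2 CPM), the chloride channel gene Clic5 10.96-fold higher (276 and 25.2 CPM), and the fatty acid hydroxylase gene Cyp4b1 12.2-fold lower. No gene of the Plvap and caveolae list (9 measured) was 2-fold apart from EC_VEN-PV+, with Ehd4 at 1424 and 1433 CPM. Of 13 interferon-stimulated genes measured 4 were higher, among them Ly6c1 (2918 and 472 CPM) and Ly6a (1892 and 620.0 CPM).

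**Figure D3:**
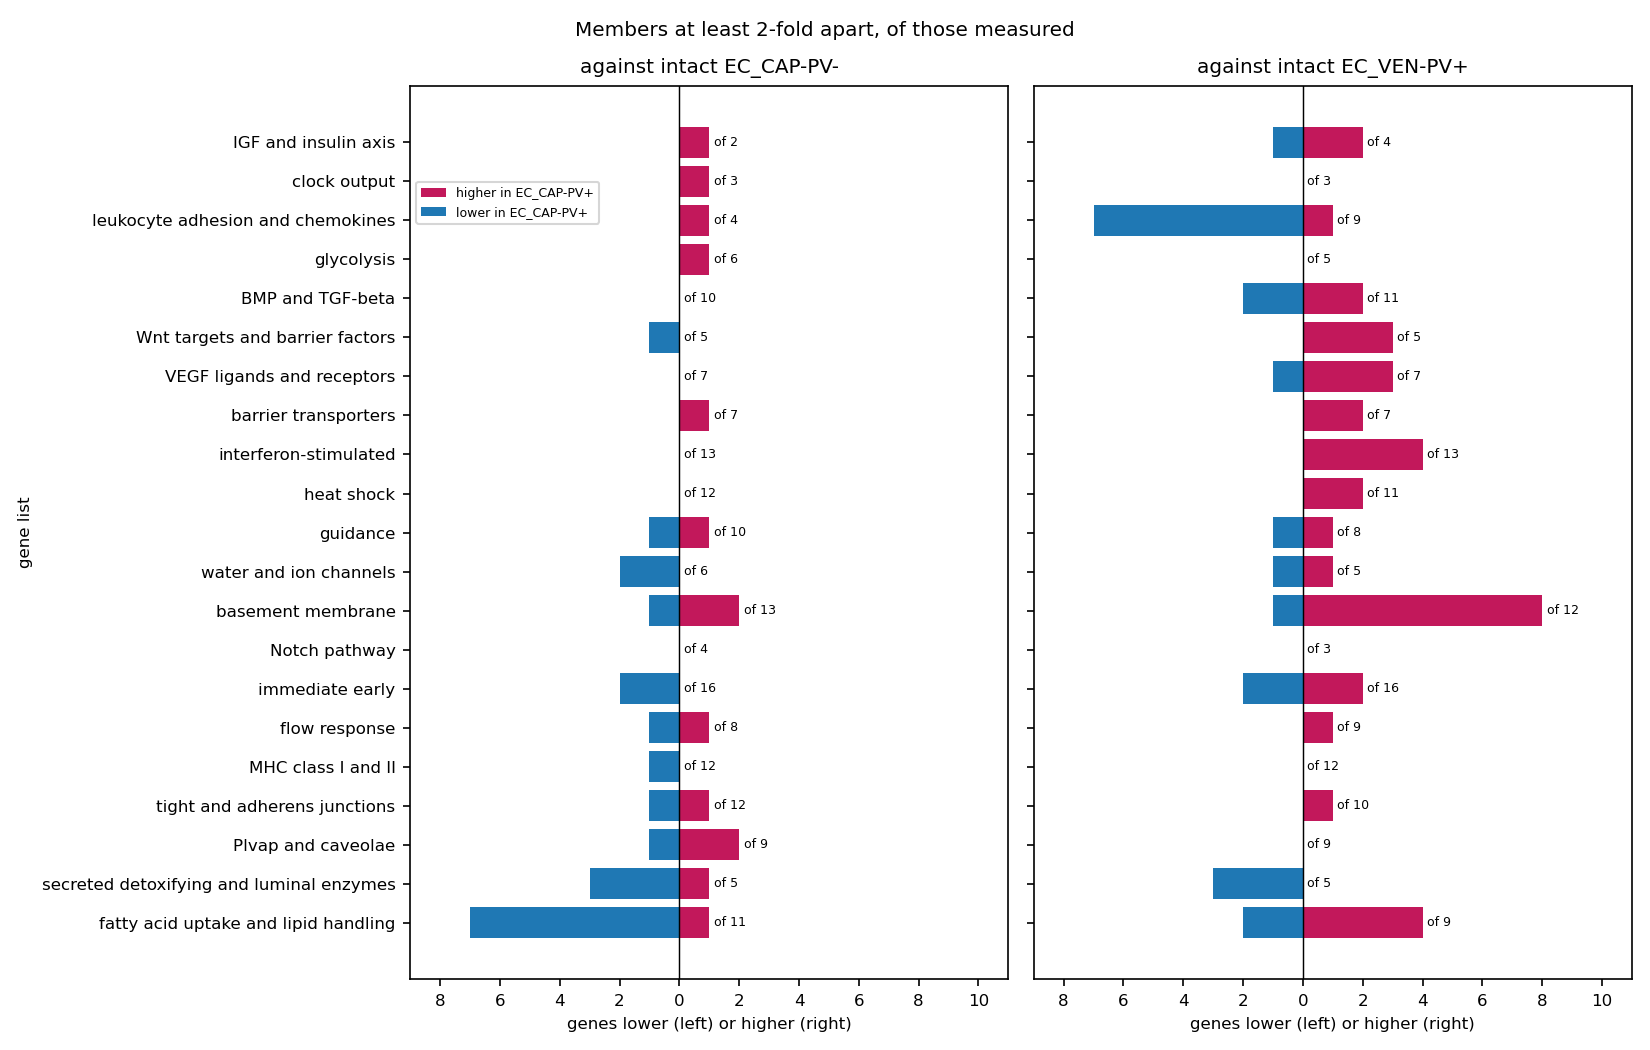
For each of 21 gene lists, the number of measured genes at least 2-fold higher (red, right) or lower (blue, left) in intact EC_CAP-PV+ than in intact EC_CAP-PV- (left panel) and EC_VEN-PV+ (right panel), with the number measured beside each bar. Fatty acid and lipid genes hold most lower members on the left (7 of 11), and basement membrane genes most higher members on the right (8 of 12).

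Over all intact classes, Plvap was highest in EC_CAP-PV+ (3582 CPM), followed by EC_VEN-PV+ (2243 CPM), EC_IMMAT (1546 CPM), EC_PROLIF (827 CPM), EC_CAP-PV- (543 CPM), EC_TIP (376 CPM), INTERMEDIATE (156 CPM), EC_VEN-PV- (44.7 CPM), EC_ART (38.03 CPM) and EC_BAR (16.2 CPM). Counting intervals of neighbours in that order overlap for EC_CAP-PV- and EC_TIP, EC_TIP and INTERMEDIATE, EC_VEN-PV- and EC_ART, and EC_ART and EC_BAR. In EC_IMMAT, EC_PROLIF and EC_TIP, 48 of 52, 27 of 38 and 17 of 21 intact cells carry a barcode that occurs in the injured library with at least 5 times as many UMIs, so their order rests on few cells of their own. Col13a1 stayed at or under 34.9 CPM and Penk at or under 1.65 CPM in every other intact class with a label, while Esm1 reached 188 CPM in EC_TIP on 5 UMIs. The barrier glucose transporter gene Slc2a1 had 1 UMI in EC_CAP-PV+ cells (5.32 CPM), against 1082 CPM in EC_BAR.

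The genes whose level over the 9 intact endothelial classes went most with Plvap were Mfge8, Ramp2, Nucb1, Rap1b and Gngt2, with Pearson's r of 0.958, 0.923, 0.909, 0.889 and 0.884. Those most like Fabp4 were Cd36, Fabp5, Psap, Rin3 and Slc43a3, at 0.973, 0.929, 0.886, 0.886 and 0.884. Without EC_IMMAT, EC_PROLIF and EC_TIP, r over 6 classes was 0.906 to 0.989 for the genes like Plvap and 0.920 to 0.988 for those like Fabp4. The genes were picked by their r over the 9 classes, which include these 6, so the second r is not a separate check. Mfge8, a secreted bridging glycoprotein, had 303 CPM in EC_CAP-PV+, 216 CPM in EC_CAP-PV- and 274 CPM in EC_VEN-PV+. The points are classes of 1 library and of unequal depth, and these values are a description.

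**Figure D4:**
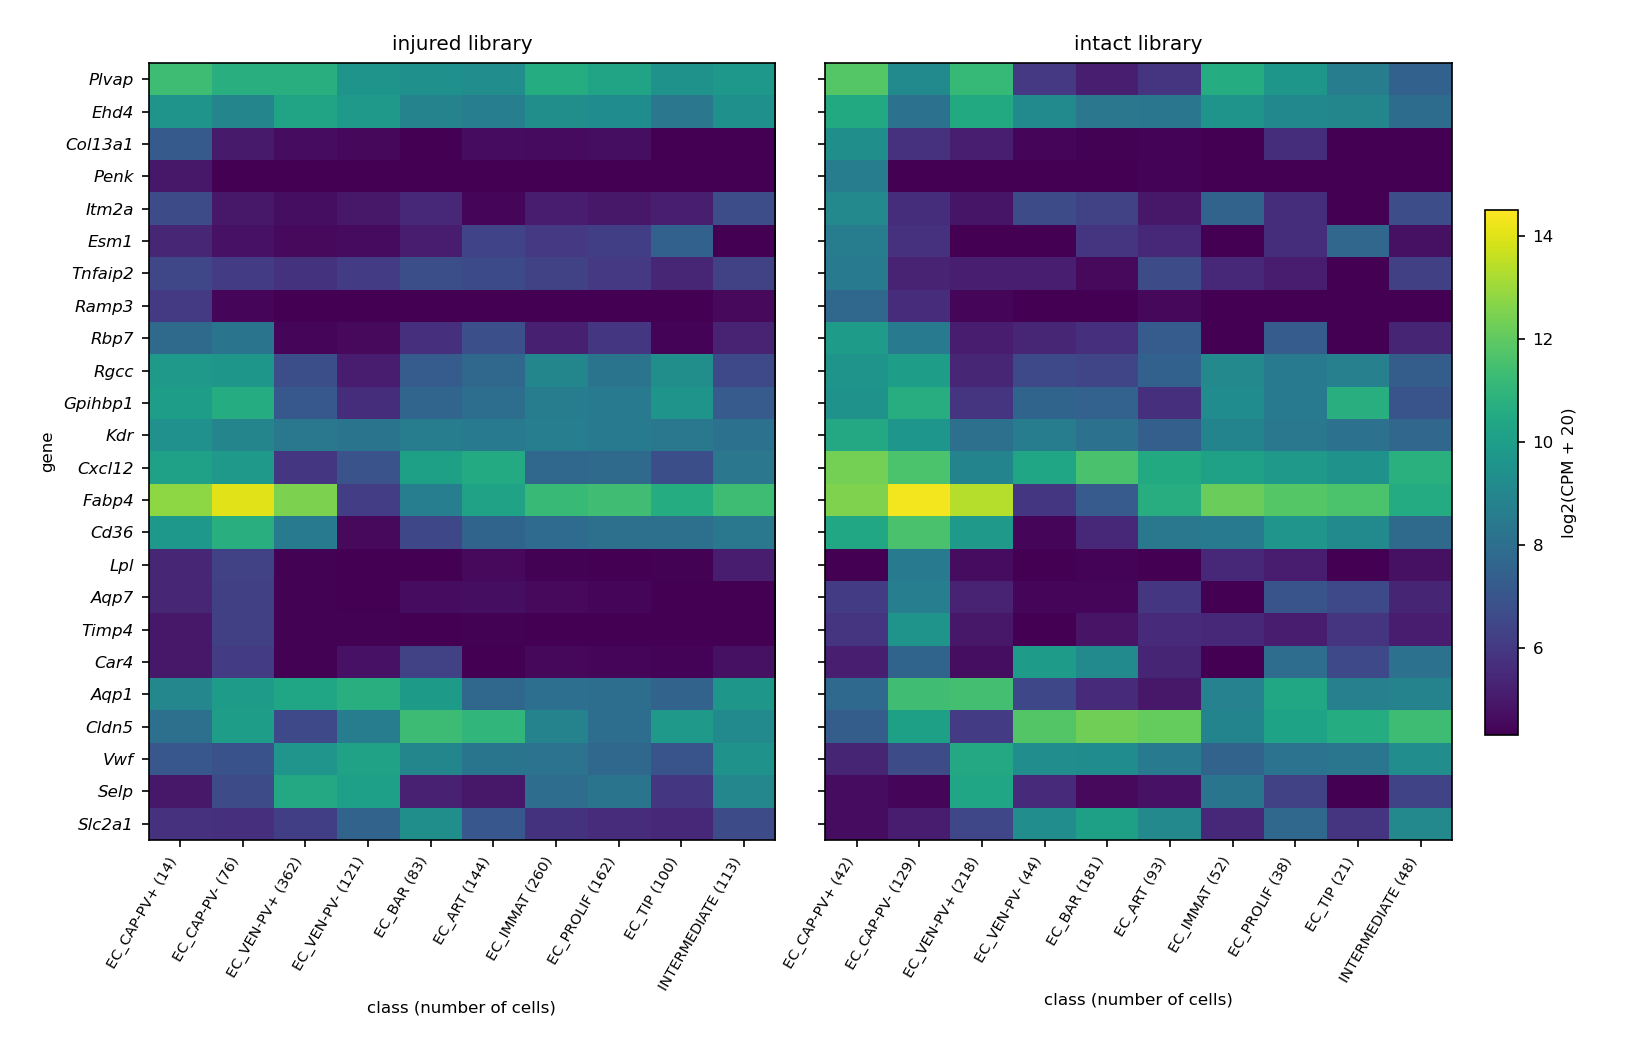
Summed level of 24 genes, as log2(CPM + 20), in the 10 annotated classes of the injured (left) and intact (right) library, with the number of cells in brackets. In intact nerve EC_CAP-PV+ has the highest level of Col13a1, Penk, Itm2a, Esm1 and Rbp7, shares Plvap and Ehd4 with EC_VEN-PV+ and shares Rgcc with EC_CAP-PV-.

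By overall profile EC_CAP-PV+ lay nearest to EC_CAP-PV-. Pearson's r across 1555 genes with intact EC_CAP-PV+ was 0.914 for intact EC_CAP-PV-, 0.808 for EC_VEN-PV+, 0.800 for EC_ART, 0.778 for EC_BAR and 0.671 for EC_TIP. These genes averaged at least 100 CPM over the 10 intact classes, and the same genes were used for the injured library below. The r values given earlier for single comparisons used the genes measured over the 2 classes compared, so they differ. Intact EC_TIP held only 26580 UMIs, and 17 of its 21 cells share a barcode with a deeper injured cell. The part of depth in these values was not tested. In the injured library, where EC_TIP held 1970991 UMIs, r with injured EC_CAP-PV+ was 0.937 for EC_CAP-PV-. It was 0.899 for EC_IMMAT, 0.882 for EC_ART, 0.867 for EC_VEN-PV+, 0.866 for EC_BAR and 0.856 for EC_TIP. When each annotated intact cell was linked to its 15 nearest neighbours, 59.4% of the links of EC_CAP-PV+ cells went to EC_CAP-PV+ cells, which were 4.85% of annotated cells. Another 29.7% went to EC_CAP-PV- and 3.65% to EC_VEN-PV+. Every EC_CAP-PV+ cell had at least 2 neighbours of its own label, the median was 9, and 31 of 42 had a majority. The label and the neighbours come from the same transcripts, so this describes how compact the class is.

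The EC_CAP-PV+ cells were not uniform. Penk UMIs were in 16 of 42 intact cells and Aqp1 UMIs in 14 of the other 26, so no cell held both. Cells with Penk had a median of 3764 UMIs and cells without it 3258, so depth was similar. Thinned to 2000 UMIs, which 33 cells reached, 13 cells held Penk, 10 Aqp1, 10 neither and 0 both. Itm2a was in 13 of 16 cells with Penk and 13 of 26 without, at 817 and 283 CPM, and Esm1 in 13 of 16 and 9 of 26, at 665 and 146 CPM. Col13a1 was in 16 of 16 and 23 of 26 cells, and Plvap stood at 3526 and 3629.8 CPM, so these 2 genes were found in both sets at similar levels. Xist, the transcript of the inactive X chromosome, was at 677 CPM in cells with Penk and 332 CPM in those without, and at 489 CPM in all EC_CAP-PV+, against 208 CPM in EC_CAP-PV- and 234 CPM in EC_VEN-PV+. The part of pooled animals in this split was not tested, and the gene pair was chosen after its values were seen.

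**Figure D5:**
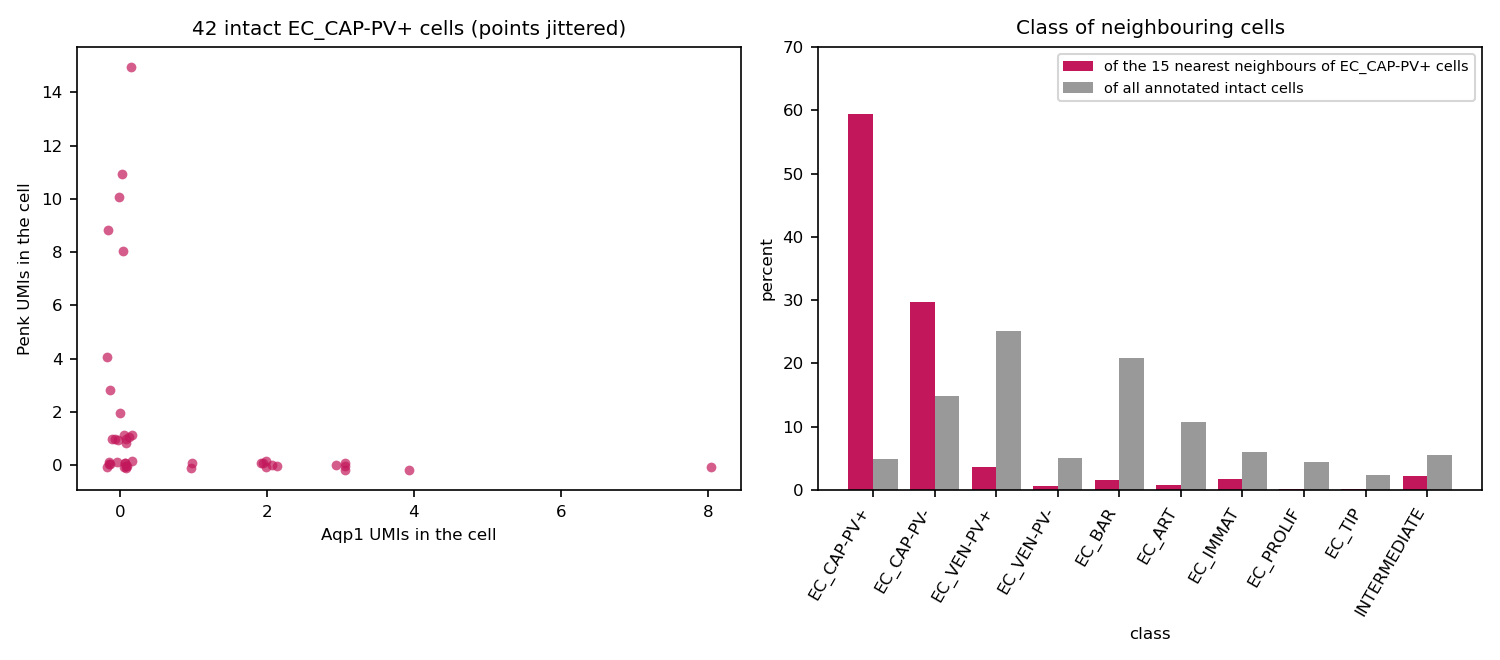
Left, UMIs of Penk (vertical) and Aqp1 (horizontal) in each of 42 intact EC_CAP-PV+ cells, where no point leaves both axes. Right, percent of each class among the 15 nearest neighbours of EC_CAP-PV+ cells (red) and among all annotated intact cells (grey), with EC_CAP-PV+ at 59.4% and 4.85%.

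In injured nerve the label was on 14 of 1435 annotated cells (0.976%, exact 95% interval 0.534 to 1.63%), against 42 of 866 (4.85%, 3.52 to 6.50%) in intact nerve, a share 4.97-fold lower (2.66 to 9.86). Of all barcodes the share was 0.692% in injured and 2.60% in intact nerve, 3.75-fold lower (2.01 to 7.44). Among the 10 leading genes of the injured cells against other annotated injured cells, led by Cd300lg, Ly6c1 and Slc6a6, there were no capillary markers and 1 tip marker, Nid2, though the 12 capillary markers summed to 10800 CPM, against 5127 CPM in the others. Values under the label are therefore given side by side and are not those of a checked cell type. Of 1591 measured genes 118 (7.42%) were at least 2-fold higher in injured than in intact EC_CAP-PV+ cells and 132 (8.3%) lower, with a median log2 ratio of 0.10 and r = 0.808. Markers of other vessel types moved with this comparison. The 12 venous markers summed to 2451 CPM in injured and 973 CPM in intact EC_CAP-PV+ cells, with 3 of 5 measured higher, and the 14 tip markers to 779 and 1302 CPM, with 3 of 4 measured lower and 1 higher. Their part in the differences was not tested. Plvap had 2542 CPM in injured and 3582 CPM in intact cells, and it was present in 14 of 14 and 41 of 42. Fabp4 had 6917 and 5905 CPM, and 12 of 14 and 42 of 42.

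Of 13 basement membrane genes measured, 6 were higher in injured EC_CAP-PV+ cells and 1, Timp3, lower. Col4a1 had 3722 CPM in injured and 877 CPM in intact cells (4.24-fold, 3.51 to 5.15) and was in all 14 injured cells. Col18a1, the collagen that contains endostatin, had 538 and 42.5 CPM (12.7-fold, 5.93 to 31.0). Outside that list, Vim, the intermediate filament vimentin, had 3928 and 702 CPM, and Tmsb10, an actin-binding peptide, 1832 and 361 CPM. In injured EC_CAP-PV- cells Col4a1 stood at 3241 CPM and Vim at 7280.3 CPM, so high levels of both were found under either capillary label of that library. The imprinted gene Mest had 42 UMIs in 7 of 14 injured and 3 UMIs in 3 of 42 intact cells (30.2-fold, 9.64 to 152). Abca1, a cholesterol exporter, was 12.6-fold higher, at 401 and 31.9 CPM, and Lrg1 3.26-fold higher, at 710.05 and 218 CPM.

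Several genes that set intact EC_CAP-PV+ cells apart were low in the injured ones. Penk had 1 UMI in injured cells and 70 in intact ones (32.5-fold lower, 5.64 to 1301), and that UMI lay in the 508-UMI cell whose barcode is shared with the deepest intact cell. Esm1 had 2 UMIs in injured cells (16.7-fold lower, 4.46 to 141). Pam was 8.93-fold and Itm2a 6.56-fold lower. Cxcl12, which in intact nerve was 2-fold apart from EC_VEN-PV+ but not from EC_CAP-PV-, had 1099 CPM in injured and 5278 CPM in intact cells. Col13a1 was still found in 7 of 14 injured cells, that 508-UMI cell among them, at 126 CPM, 5.11-fold lower (2.75 to 10.499). Fam167b went the other way, with 515 CPM in injured and 207 CPM in intact cells (2.49-fold higher, 1.58 to 3.92). Cst3, the protease inhibitor cystatin C, had 596 and 4539 CPM, and the mitochondrial aldehyde dehydrogenase gene Aldh2 was 11.1-fold lower. Of 16 immediate early genes 10 were lower in injured cells, with a median log2 ratio of -1.28, among them Fos (1420.1 CPM in injured and 3800.4 CPM in intact cells), and 4 of 10 heat shock genes were lower. Among those 4, Hspa1b had 4 and 34 UMIs, and its direction turned with the mean of per-cell CPM (log2 ratio 0.27). Flt1 (790 and 2535 CPM), Nrp1 (321 and 989 CPM), Cavin1, a coat protein of caveolae (160 and 691 CPM), the Notch target gene Hes1 (137 and 521 CPM) and the uncharacterised AC160336.1 (45.8 and 345 CPM) were lower too.

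Within the injured library EC_CAP-PV+ and EC_CAP-PV- cells were closer. Of 1599 measured genes 38 (2.38%) were at least 2-fold higher in EC_CAP-PV+ and 42 (2.63%) lower, with r = 0.927. Plvap had 2542 CPM in injured EC_CAP-PV+ and 1637 CPM in injured EC_CAP-PV-, where 72 of 76 cells held it (1.55-fold, 1.34 to 1.79). Col13a1 was 9.47-fold higher (3.89 to 22.4), at a mean too low to be counted, and Cldn5 4.09-fold and Fabp4 2.45-fold lower, the same directions as in intact nerve. The difference between the conditions in these ratios was not tested.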

How the data were processed

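Single-cell RNA libraries of 1 injured (7 days) and 1 intact pool of mouse sciatic nerve endothelium were used, grouped by the labels. The deposited matrices hold raw counts of UMIs per gene and barcode, made with Cell Ranger 3.0.2 per the file headers. Per the submitters' processing notes, the tools were Cell Ranger 6.1.2 and Seurat 4.0.1, and mm10 and GRCm38 are both listed as genome. The sources used here give neither the authors' filters, doublet checks nor classing steps, and no doublet caller was run. Strand handling is not stated, so overlapping and antisense genes may share reads. All cells with a class in the deposited cell table were kept. Of 53379 gene IDs (beside TdTomato) 50604 (94.8%) matched GENCODE M21 with version.

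UMIs were summed per class and divided by the class total (CPM). Genes averaging 100 CPM or more were measured, and those at 2-fold, with 20 CPM added, counted as apart. CPM carry exact Poisson, ratios exact conditional binomial and shares Clopper-Pearson 95% intervals, for counting error only. A zero was set to 3 counts over the class. Genes named by rule are the 12 highest and 12 lowest of each intact comparison (at least 100 CPM, 20 UMIs and 6 cells in the higher class). For injured over intact they are the 6 highest and 6 lowest (300 CPM and 5 cells). List members (up to 3 per direction or the 2 most abundant) and fixed class genes complete the rule. Other genes, such as Fos for injured over intact and Klf4 for the intact comparisons, were chosen after their values were seen. Lists were chosen, like the class itself, with earlier results of these data known. Neighbours used 2000 variable genes and 30 principal components (scanpy 1.11.5, scikit-learn 1.9.0), thinning used seed 1, and Python 3.11.15 and scipy 1.17.1 ran the rest. The ratio step was tested on simulated class totals with Poisson counting error only. That simulation held no variation between cells, so it cannot check how such variation affects the ratios and intervals. Alternatives varied the added CPM, the minimum level, scaling, thinning, mitochondrial share, shared barcodes and the deepest cells.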

Additional observations from a re-analysis of the deposited data

Results flagged for a closer look

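Outside the annotated cells, 6 of 752 intact barcodes without a class held at least 4 of the 6 genes Col13a1, Penk, Itm2a, Esm1, Tnfaip2 and Fam167b, a set chosen from their values here. Among intact cells with a class, 22 of 42 EC_CAP-PV+ cells and 1 of 776 other endothelial cells did. The 6 barcodes had 6077 to 19713 UMIs (median 18342), 21 to 85 Plvap UMIs and 6 to 23 Cdh5 UMIs, and 5 of them share a barcode with a shallow injured cell. In 4 of them Rgs5, a pericyte gene, had 1, 11, 19 and 60 UMIs. Why they carry no class was not tested. In the injured library 3 of 14 EC_CAP-PV+ cells and 11 of 588 barcodes without a class met the same count. So did 13 of 162 EC_PROLIF, 9 of 260 EC_IMMAT and 6 of 100 EC_TIP injured cells. Among injured EC_CAP-PV-, EC_ART and EC_VEN-PV+ cells, 3 of 76, 2 of 144 and 1 of 362 did. The share was 21.4% in injured EC_CAP-PV+ and 8.02% in injured EC_PROLIF, the next highest class, against 52.4% in intact EC_CAP-PV+. The injured cells that met the count had a median of 6675 UMIs in EC_CAP-PV+ and 28225 in EC_PROLIF. The part of depth in these shares was not tested.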

How the results depend on the processing

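No paired analysis was possible because each condition has 1 library and no replicate numbers. The number of genes 2-fold apart from EC_CAP-PV- (120) was 226 at a minimum of 50 CPM, 62 at 200 CPM, 513 with no minimum and 186 with cells thinned to 2000 UMIs. Against EC_VEN-PV+ (244) it was 412, 124 and 811 at those minimums. For injured over intact (250) it was 515, 133 and 1724, 381 with the mean of per-cell CPM and 465 when thinned. Each of the 120 and 244 genes kept its direction under every alternative run. Of the 250, 242 did with per-cell means, 244 when thinned, 248 without the deepest cells and all under the other alternatives run. The Plvap log2 ratio to EC_CAP-PV- (2.68) was 3.15 with per-cell means. The Fabp4 ratio to EC_VEN-PV+ (-0.84) was -0.73 without shared barcodes, -0.75 without the deepest cells and -0.94 without mitochondrial and ribosomal protein genes, and that of injured over intact (0.23) was 0.47 with per-cell means, 0.58 thinned and 0.51 without the deepest cells. The intact share was 2.60% of all barcodes. Among the genes named by rule, 3 turned round, all for injured over intact: Fzd4 (0.29) and Hspa1b (0.27) with per-cell means and Aqp1 (-0.22) when thinned. The cause of these shifts was not tested beyond the change in genes or cells that each setting makes. Of 1638 list counts 246 moved by over 1.5 times or to or from 0, and 221 of 2450 single-gene values moved by more than their counting interval. The injured class rests on 14 cells, whose deepest holds 22.1% of its UMIs, and a gene at 1 UMI equals 11.5 CPM there and 5.32 CPM in the intact class.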

Other observations

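Axon and vessel guidance genes were mixed in intact EC_CAP-PV+ cells. Against EC_CAP-PV-, Sema3f, a secreted semaphorin, was 3.77-fold higher (186 and 49.3 CPM) and Sema6a, a transmembrane one, 2.68-fold lower (85.04 and 228 CPM), out of 10 measured. Against EC_VEN-PV+ Jam3 was 11.3-fold higher (260 and 22.99 CPM), Igfbp3 27.2-fold higher (303 and 11.1 CPM) and Slc9a3r2, a scaffold protein gene, 4.91-fold higher (1122 and 228 CPM). Among flow response genes, Klf2 and Klf4, transcription factors induced by shear flow, were at 1765 and 1334 CPM in EC_CAP-PV+, within 2-fold of both other intact classes, while Klf6 was 2.72-fold lower than in EC_CAP-PV- (175 and 477 CPM). In injured EC_CAP-PV+ cells Klf2 and Klf4 had 710.0 and 424 CPM, 2.49-fold and 3.15-fold lower than in intact ones.

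The clock output gene Nr1d1 had 22.9 CPM in injured and 202 CPM in intact EC_CAP-PV+ cells, on 2 and 38 UMIs (8.82-fold lower, 2.28 to 75.5). The sources used here do not name the time of day of sampling, and its part was not tested.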
